A study of Mus musculus with 7 samples.

Results

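The contralateral hindlimb tendon of mice that had received a burn and an Achilles tenotomy was compared with the hindlimb tendon of mice that had received neither. The 5 libraries were chosen by the condition label among the 7 of the study, 3 from contralateral legs and 2 from uninjured mice. The study asked what signalling through TAK1, a kinase downstream of TGF-β and BMP receptors, does in heterotopic ossification, the growth of bone within soft tissue after trauma. All mice were of C57BL/6 background, and the protocol calls the uninjured mice wild-type. The injured mice had a metal block of 60 °C held to the back over 30% of the body surface for 18 s, a partial-thickness burn, and in the same session the Achilles tendon of the left leg was cut at its midpoint. They then received buprenorphine against pain. The contralateral libraries came from the right leg of such mice 3 weeks later, and 2 further libraries came from the cut tendon of the left leg. The tissue taken lay between the insertion in the gastrocnemius muscle and the attachment at the heel bone. Neither age nor sex is given, and nothing says that replicates came from separate animals, so p-values measure the spread between these libraries, which may be technical. Burn, tenotomy of the other leg, anaesthesia and the analgesic went together in the injured mice, so their parts in any difference cannot be told apart. The sample titles carry numbers that fall into 3 series. The contralateral libraries share a series that holds neither uninjured library, and the uninjured libraries fall in different series. Within the 5 libraries, a difference between series therefore cannot be told apart from one between the groups. What the series stand for is not given in the sources used here.

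A burn is known as a whole-body injury as well as a local one. It raises circulating glucocorticoids and catecholamines, starts an acute-phase response and leads to muscle wasting, which proceeds through ubiquitin ligases. Tendon is built mostly of type I collagen, a trimer of the chains encoded by Col1a1 and Col1a2, laid down by tenocytes, and at its upper end it joins muscle fibres.

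The 2 uninjured libraries were unlike each other. Over all genes tested, the distance between libraries (Euclidean, on log2 CPM, counts scaled to a common library total of 1000000) was 56.7 to 65.2 among the contralateral libraries. Uninjured replicate 2 lay at 64.5 to 67.4 from them. The library labelled uninjured replicate 1 lay at 124.9 to 132.1 from the contralateral libraries and at 114.0 from uninjured replicate 2, but at 59.6 and 61.1 from the libraries of the cut tendon. The summed CPM of 23 skeletal muscle genes was 10766 to 13901 in the contralateral libraries and 10146 in uninjured replicate 2, against 1438 in the library labelled uninjured replicate 1 and 1151 in each cut-tendon library. The 13 macrophage and leukocyte markers summed to 38.3 to 48.3 CPM in the contralateral libraries, 48.4 in uninjured replicate 2, 150 in the library labelled uninjured replicate 1, and 150 and 153 in the cut tendon. No pair of libraries agreed within sampling noise. Whether a label is exchanged was not tested, so levels of the genes described are given in each uninjured library where a difference rests on both. In bulk tissue, fewer cells of a type and less RNA per cell cannot be told apart. Among the markers of tendon itself, Col1a1, Fmod and Dcn were measured in all libraries, while Scx, the tendon-defining transcription factor, was at 0.464 to 0.626 CPM in the contralateral libraries, 0.934 in the library labelled uninjured replicate 1 and 0.585 in uninjured replicate 2.

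The genes of type I collagen, Sparc and several imprinted growth genes were lower in all 3 contralateral libraries than in both uninjured ones. Pdk4, Ppp1r3c, the ubiquitin ligase gene Fbxo32 and genes of slow muscle fibres were higher than in both. Col1a1 had the widest gap between the nearest libraries of the groups among well-measured genes (mean log2 CPM of at least 3), with 439 CPM on average (SD 57.4, n = 3) against 2357 and 2214 in the uninjured libraries. In the fit of all libraries none of these differences passed edgeR's test, while DESeq2 called part of them, among which were Col1a1 (adjusted p = 1.21e-27), Pdk4 (adjusted p = 1.94e-07) and Atp2a2 (adjusted p = 4.88e-05). With the library labelled uninjured replicate 1 left out, the log2 fold changes of Col1a1, Pdk4 and Atp2a2 were -2.33, 1.54 and 1.51. That fit keeps 1 uninjured library, so it cannot measure the spread between uninjured libraries.

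The libraries held 25926984 to 36724920 estimated counts, of which 11 ribosomal, mitochondrial and other abundant features took 88.05% to 90.47%. The remaining 2527343 to 4225736 counts per library carried the comparison. Of 16028 features tested, called genes here, edgeR's quasi-likelihood test called 0 (0%) higher and 0 (0%) lower in the contralateral libraries at an adjusted p of 0.05. The smallest adjusted p was 0.123. By limma-voom the counts were also 0 (0%) and 0 (0%), whereas DESeq2 called 81 (0.505%) higher and 142 (0.886%) lower. At an unadjusted p under 0.05, 1397 genes (8.72%) were higher and 1687 (10.5%) lower. With 3 libraries against 2 there are 10 ways to split them, so a two-sided exact permutation test of a single gene cannot go below 0.2.

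The contralateral libraries all lay above both uninjured libraries for 3030 genes (18.9%) and below both for 2663 (16.6%). For most of these the separation was small. The median gap between the nearest libraries of the groups was 0.155 on the log2 scale, while the median difference between the uninjured libraries was 0.376. A gap of at least 1 log2, which is 2-fold, with the uninjured libraries no farther apart than the gap, was met by 25 genes (0.156%) with contralateral levels higher and by 28 (0.175%) with levels lower. Just inside that limit were Gm5532 with a gap of 1.02 and Snhg5 with 1.01, and just outside it Bex1 with 0.97. The library labelled uninjured replicate 1 lay below the contralateral range for 6079 genes (37.9%) and above it for 6253 (39.0%). Uninjured replicate 2 lay below for 4752 (29.6%) and above for 4281 (26.7%). When the library labelled uninjured replicate 1 was left out, edgeR called 52 genes (0.306%) higher and 53 (0.311%) lower. Leaving out uninjured replicate 2 instead gave 2857 (16.9%) and 2536 (15.0%). Fits without the library labelled uninjured replicate 1 rest on 1 uninjured library, whose spread is assumed to be that of the other groups. Adjusted p-values quoted from them below therefore say nothing about variation between uninjured libraries.

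**Figure D1:**
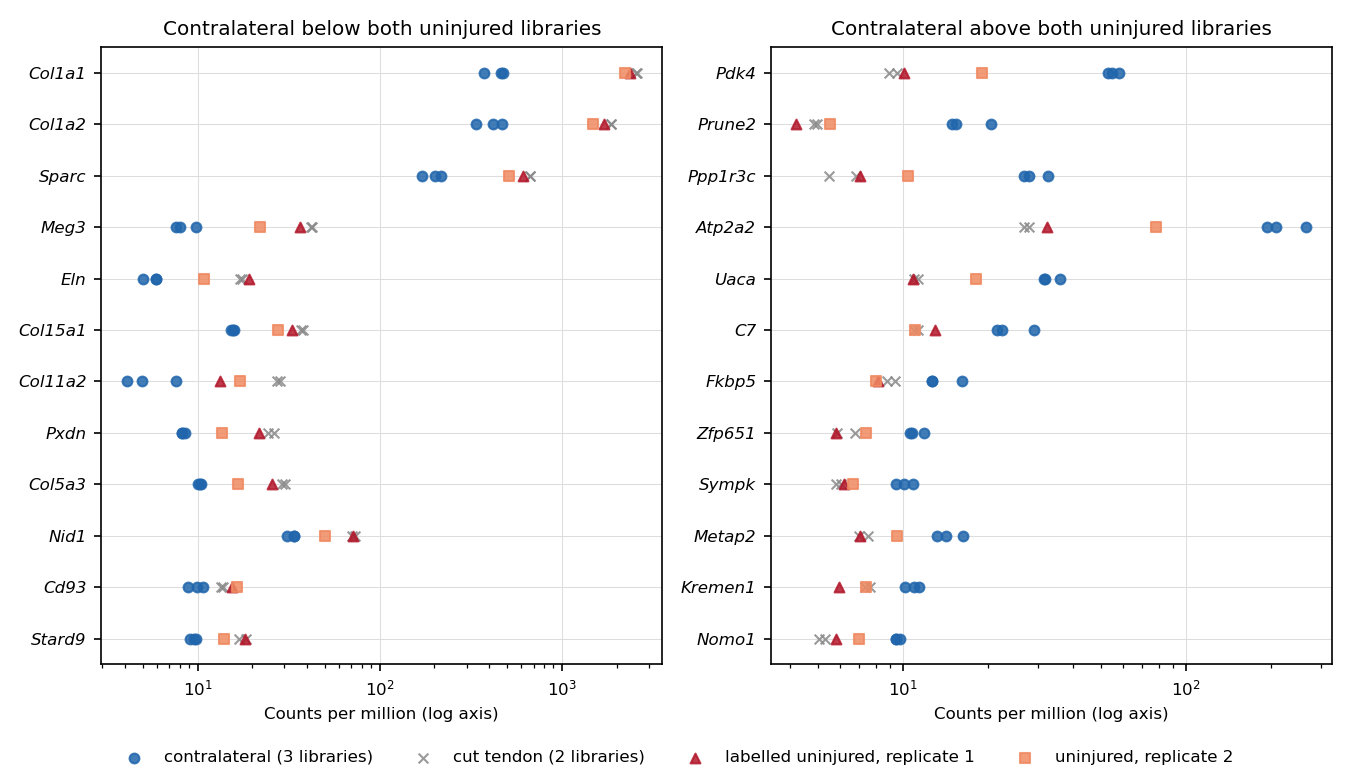
CPM on a log axis for the 24 genes with the widest separation at a mean log2 CPM of at least 3, each symbol being 1 library. The 3 contralateral libraries lie below both uninjured libraries for the 12 genes drawn on the left, and above both for the 12 drawn on the right. The libraries of the cut tendon, drawn as crosses, were not used to choose the genes.

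Type I collagen showed the widest gap between the nearest libraries of the groups among well-measured genes. Col1a1 (chromosome 11, 94936224 to 94953042, plus strand, GRCm38) was at 478, 466 and 373 CPM in contralateral replicates 1, 2 and 3. It was at 2357 CPM in the library labelled uninjured replicate 1 and at 2214 in uninjured replicate 2. The groups stood 4.63-fold apart at their nearest libraries, and the uninjured libraries, which differed so widely in muscle genes, were within 0.09 log2 of each other here. The log2 fold change of contralateral against uninjured was -2.38 (SE 0.25, adjusted p = 0.128). Without the library labelled uninjured replicate 1, Col1a1 fell by 2.33 log2 (SE 0.15, adjusted p = 8.88e-05).

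Col1a2 (chromosome 6, 4504814 to 4541544, plus strand), the partner chain, was at 469, 417 and 337 CPM in the contralateral libraries against 1711 and 1489 in uninjured replicates 1 and 2. Its log2 fold change was -1.97 (SE 0.25, adjusted p = 0.150), and without the library labelled uninjured replicate 1 it fell by 1.87 log2 (adjusted p = 0.000585). Sparc, which encodes a matrix protein that binds collagen, was at 217, 202 and 171 CPM against 612 and 512, and without that library it fell by 1.38 log2 (adjusted p = 0.00175). The libraries of the cut tendon held 2565 and 2583 CPM of Col1a1, so both kinds of tissue set beside the contralateral tendon had more of it. The skeletal muscle sum in uninjured replicate 2 was slightly under the lowest contralateral value, and its 8 fast-fibre genes summed to 6215 CPM, within the contralateral range of 5887 to 8318. The part that the mix of muscle and tendon in each sample had in the collagen difference was not tested.

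All collagen chain genes were then listed, a set chosen after these values were seen. Of 41 tested, 24 had all contralateral libraries below both uninjured ones and 1, Col17a1, above both. Over all genes tested, these shares were 16.6% and 18.9%. The median difference over the chains was -1.64 against the library labelled uninjured replicate 1 and -0.45 against uninjured replicate 2, where all genes tested had medians of -0.02 and 0.01. Without the library labelled uninjured replicate 1, 14 chains fell at an adjusted p of 0.05 and 0 rose.

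Col3a1, the fibrillar collagen of young and healing matrix, was at 170, 204 and 201 CPM in the contralateral libraries. It stood at 1808 CPM in the library labelled uninjured replicate 1 but at 384 in uninjured replicate 2, and fell by 1.00 log2 (adjusted p = 0.0125) against the latter alone. The chains Col5a2, Col11a1, Col14a1 and Col16a1 had the same layout, with a moderate difference from uninjured replicate 2 and a much wider one from the other library. Col11a2, by contrast, was higher in uninjured replicate 2, with 7.65, 4.92 and 4.08 CPM in the contralateral libraries, 13.3 in the library labelled uninjured replicate 1 and 17.2 in uninjured replicate 2. Of the basement membrane chains, Col4a1 fell by 0.80 log2 (adjusted p = 0.0251) in the fit without the library labelled uninjured replicate 1, whereas Col4a6, at 0.412 to 0.588 CPM, overlapped it.

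**Figure D2:**
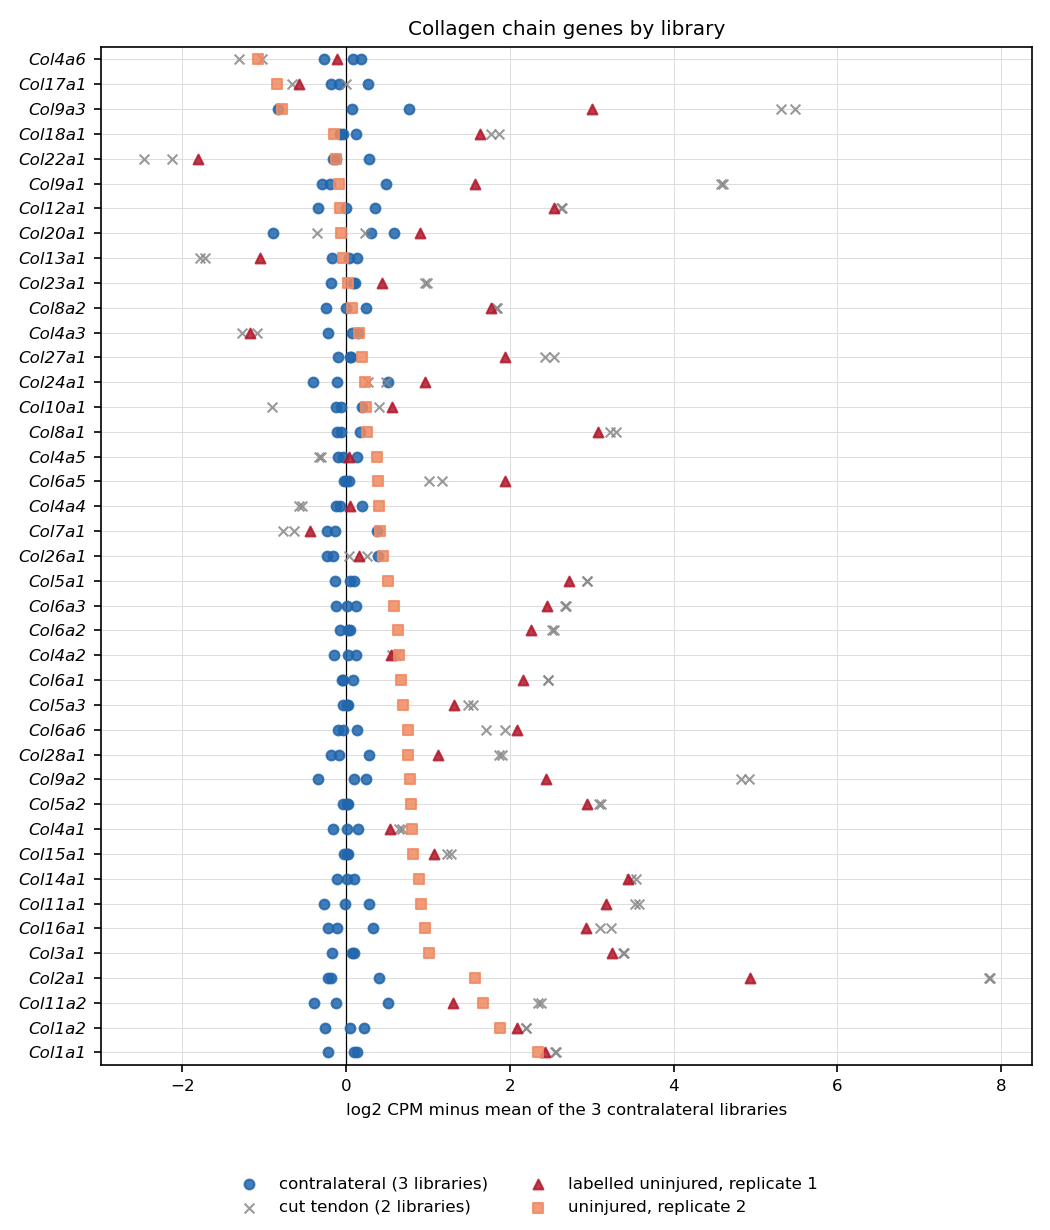
Level of each collagen chain gene in each library as the difference in log2 CPM from the contralateral mean, ordered by uninjured replicate 2. Col1a1 and Col1a2, at the bottom, are the chains for which uninjured replicate 2 lies farthest above the contralateral mean.

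Other genes of the extracellular matrix lay on the same side. Eln, which encodes elastin, was at 5.02, 5.89 and 5.94 CPM against 19.2 and 10.8 in uninjured replicates 1 and 2. Pxdn, a peroxidase that crosslinks collagen IV, was at 8.25 to 8.51 CPM against 21.7 and 13.7. Both fell in the fit without the library labelled uninjured replicate 1, Eln by 0.94 log2 (adjusted p = 0.0134) and Pxdn by 0.71 (adjusted p = 0.0274).

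Genes of tendon cells divided. Of 15 tested, 6 had contralateral levels below both uninjured libraries, Col1a1, Col1a2, Kera, Tnmd, Tnc and Bgn, and 0 above both. Over all genes tested, the shares were 16.6% below both and 18.9% above both. The median over the 15 was -0.86 log2 against the library labelled uninjured replicate 1 and -0.34 against uninjured replicate 2. Kera, a small proteoglycan of collagen fibrils, was at 5.81, 6.18 and 4.33 CPM against 9.81 and 11.7. Tnmd, a membrane protein of mature tenocytes, was at 9.07, 8.05 and 5.41 against 25.3 and 11.8. Kera fell without the library labelled uninjured replicate 1 (adjusted p = 0.016), while Tnmd did not pass (adjusted p = 0.252), and Scx and Comp overlapped between the groups. Other abundant matrix genes of tendon overlapped too. Dcn, which encodes the proteoglycan decorin, was at 194, 159 and 115 CPM against 191 and 177, and Fmod, which encodes fibromodulin, at 137, 91.8 and 74.1 CPM against 97.6 and 137.

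The list of wound matrix genes had 13 of 21 below both uninjured libraries, where 16.6% of all genes were, but by very different amounts. The median difference was -2.95 against the library labelled uninjured replicate 1 and -0.43 against uninjured replicate 2. Postn, a matricellular protein of healing tissue, was at 8.96, 11.1 and 8.23 CPM in the contralateral libraries, 278 in the library labelled uninjured replicate 1 and 13.7 in uninjured replicate 2. Fn1, which encodes fibronectin, was at 77.1 to 103 CPM and at 88.7 in uninjured replicate 2, against 775 in the library labelled uninjured replicate 1. Acta2, the smooth muscle actin, was the 1 member on the other side, at 29.9 to 39.6 CPM against 18.0 and 22.2. Without the library labelled uninjured replicate 1, 3 members fell, Sparc, Col3a1 and Col5a2.

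Cartilage genes were low in the contralateral tendon, with 9 of 14 tested below both uninjured libraries. Over all genes tested, 16.6% lay below both and 18.9% above both. The medians over the cartilage genes were -2.17 log2 against the library labelled uninjured replicate 1 and -0.67 against uninjured replicate 2. Col2a1, the main collagen of cartilage, was at 0.412, 0.655 and 0.402 CPM. It was at 16.6 CPM in the library labelled uninjured replicate 1, 1.55 in uninjured replicate 2, and 126 and 125 in the cut tendon. Acan, the large cartilage proteoglycan, was at 0.675 to 1.11 CPM against 45.9 in the library labelled uninjured replicate 1 and 1.24 in uninjured replicate 2. Of 5 bone genes tested, Ibsp and Alpl lay above both uninjured libraries, and Runx2 and Phex below both. Spp1 went opposite ways, at 9.56 to 13.9 CPM against 41.5 in the library labelled uninjured replicate 1 and 5.02 in uninjured replicate 2.

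Imprinted growth genes, expressed from 1 parental allele and known as regulators of fetal growth, were listed after the values of Meg3 were seen. Meg3 (chromosome 12, 109541001 to 109571726, plus strand), a long noncoding RNA, was at 9.82, 7.63 and 8.01 CPM in the contralateral libraries against 36.3 and 22.02 in uninjured replicates 1 and 2. Rian, from the same cluster (109603940 to 109661716), was at 4.12, 4.44 and 4.70 CPM against 20.8 and 11.05. Rtl1 and Mirg, of the same cluster, were also below both uninjured libraries. All 4 lay at least 0.89 log2 below the nearer uninjured library. Neighbouring transcripts of this cluster overlap or lie close together, and whether the counting used strand is not given in the sources used here.

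Of the 19 imprinted genes tested, 10 lay below both uninjured libraries and 1, Asb4, above both, where 16.6% and 18.9% of all genes did. The medians over the 19 were -0.70 and -0.50 log2 against uninjured replicates 1 and 2. Cdkn1c, an inhibitor of cyclin-dependent kinases, was at 1.95, 1.65 and 1.36 CPM against 4.13 and 4.89. Igf2, the fetal growth factor, was at 4.68, 4.18 and 3.77 CPM against 6.07 and 9.81. H19, the noncoding neighbour of Igf2, did not separate, at 52.4, 60.6 and 53.7 CPM between 20.4 in the library labelled uninjured replicate 1 and 119 in uninjured replicate 2. Cdkn1c, H19, Igf2, Meg3 and Rian fell in the fit without the library labelled uninjured replicate 1, at adjusted p from 0.00153 for Rian to 0.00608 for Cdkn1c.

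Pdk4 (chromosome 6, 5483351 to 5496309, minus strand) was the well-measured gene with the widest separation in the other direction. It encodes pyruvate dehydrogenase kinase, which turns muscle from glucose to fat as fuel, and is induced by fasting and by glucocorticoids. It was at 54.5, 57.7 and 53.0 CPM in the contralateral libraries, 10.1 in the library labelled uninjured replicate 1 and 18.96 in uninjured replicate 2. The 3 contralateral libraries were nearly equal and the nearest uninjured library was 2.79-fold lower. The log2 fold change was 1.92 (SE 0.28, adjusted p = 0.150), and without the library labelled uninjured replicate 1 Pdk4 rose by 1.54 log2 (SE 0.13, adjusted p = 0.000585). The cut tendon held 8.89 and 9.57 CPM.

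Next in order came Prune2, Ppp1r3c and Atp2a2. Ppp1r3c, which targets a phosphatase to glycogen and promotes glycogen synthesis, was at 32.4, 26.7 and 27.9 CPM against 7.04 and 10.5, and rose by 1.47 log2 without the library labelled uninjured replicate 1 (adjusted p = 0.00321). Prune2 was at 14.9, 20.4 and 15.4 CPM against 4.20 and 5.54. C7, a terminal complement component, was at 28.9, 21.5 and 22.4 CPM against 13.0 and 11.05, with uninjured replicate 2 the lower. Prune2 and C7 rose in the same fit, at adjusted p of 0.00565 and 0.0168.

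Genes that respond to glucocorticoids had 9 of 19 members above both uninjured libraries and 0 below both, where all genes had 18.9% above and 16.6% below. The library labelled uninjured replicate 1 lay below the contralateral range for 15 of the 19 (37.9% of all genes). Uninjured replicate 2 lay below it for 9 (29.6% of all genes). The median difference was 0.74 log2 against the library labelled uninjured replicate 1 and 0.19 against uninjured replicate 2. Fkbp5, a chaperone of the glucocorticoid receptor and one of its direct targets, was at 16.2, 12.7 and 12.7 CPM against 8.19 and 8.02, with the uninjured libraries within 0.03 log2 of each other. Its log2 fold change was 0.77 (SE 0.17, adjusted p = 0.215), and 0.78 without the library labelled uninjured replicate 1 (adjusted p = 0.0709), so it passed in neither of these fits. DESeq2 called it (adjusted p = 0.0399). Zbtb16, another target, was at 38.9, 31.4 and 30.6 CPM against 9.88 and 22.4.

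The other 6 members with no overlap differed from uninjured replicate 2 by less than Zbtb16 did. Tsc22d3, known as the glucocorticoid-induced leucine zipper, was at 39.6, 30.2 and 28.8 CPM against 19.3 and 26.7. Klf9, a transcription factor, was at 21.4 to 23.9 CPM against 10.6 and 17.6. Cebpb, Sgk1, Hsd11b1 and Per1 completed the 9. Mt1 and Mt2, the metallothioneins, overlapped, with contralateral levels of 3.62 to 7.65 and 2.50 to 7.76 CPM. Without the library labelled uninjured replicate 1, 1 of the 19, Pdk4, rose at an adjusted p of 0.05.

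**Figure D3:**
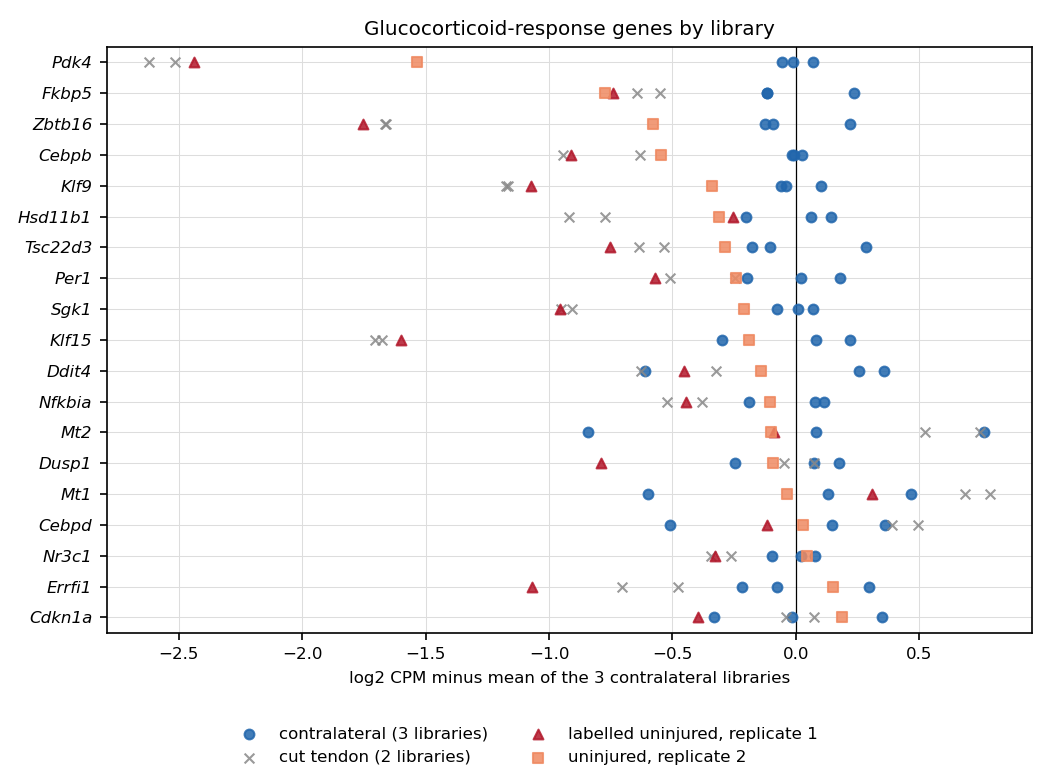
Level of each of 19 glucocorticoid-response genes in each library as the difference in log2 CPM from the contralateral mean. Pdk4 lies 1.54 log2 lower in uninjured replicate 2 and Fkbp5 0.77 lower, while the genes from Klf15 downward have uninjured replicate 2 within the contralateral range.

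Genes of muscle protein breakdown had 9 of 18 above both uninjured libraries and 1, Ctsl, below both (18.9% and 16.6% of all genes). The library labelled uninjured replicate 1 lay below the contralateral range for 14 of the 18 (37.9% of all genes). Uninjured replicate 2 lay below it for 9 (29.6% of all genes). Of the 23 skeletal muscle genes, 13 lay above both. Over the 18 breakdown genes, the median difference was 0.41 log2 against the library labelled uninjured replicate 1 and 0.18 against uninjured replicate 2. Fbxo32 (atrogin-1), a ubiquitin ligase raised in wasting muscle, was at 34.4, 41.9 and 28.9 CPM against 7.15 and 14.6. It rose by 1.26 log2 without the library labelled uninjured replicate 1 (adjusted p = 0.0168). Trim63 (MuRF1), the other muscle ubiquitin ligase, was at 16.9, 16.9 and 15.2 CPM against 4.67 and 10.4, and did not pass in that fit (adjusted p = 0.0611). The other members above both, among them Psmd11 and Gabarapl1, had gaps of at most 0.23 log2.

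Muscle genes were not evenly different. Of 23 skeletal muscle genes, 23 were below the contralateral range in the library labelled uninjured replicate 1, by a median of 3.03 log2. In uninjured replicate 2, 13 were below it, by a median of 0.24. The shares over all genes were 37.9% and 29.6%, and 18.9% had contralateral levels above both libraries. The genes were divided into slow-fibre and fast-fibre isoforms after these values were seen. All 7 slow isoforms lay above both uninjured libraries and rose in the fit without the library labelled uninjured replicate 1, with median differences of 3.41 log2 from that library and 1.04 from uninjured replicate 2. Of the 8 fast isoforms, 2 lay above both and 0 rose in that fit, with median differences of 2.87 and 0.13.

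Atp2a2, the calcium pump of slow fibres, was at 207, 266 and 194 CPM in the contralateral libraries, 32.2 in the library labelled uninjured replicate 1 and 78.1 in uninjured replicate 2. Myh7, the slow myosin heavy chain, was at 500, 608 and 411 CPM, 40.3 and 243 in the same order. Tnnc1, the slow troponin C, was at 46.5, 57.7 and 45.1 CPM, 4.599 and 20.9. Against uninjured replicate 2 alone these rose by 1.51, 1.06 and 1.25 log2, at adjusted p of 0.00565, 0.0429 and 0.00746.

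Most fast counterparts overlapped with uninjured replicate 2, which lay below the contralateral range for 2 of the 8. Myh4, the fastest myosin heavy chain, was at 2753, 2552 and 3739 CPM against 2783 in uninjured replicate 2 and 440 in the library labelled uninjured replicate 1. Mylpf, a fast light chain, was at 236, 249 and 410 CPM against 389 and 51.1. Myh2, the heavy chain of fast oxidative fibres, went with the slow isoforms, at 956, 1069 and 887 CPM against 536 in uninjured replicate 2, and so did Mb, which encodes myoglobin, at 234, 332 and 302 CPM against 121. Myosin heavy chain genes are near-identical over long stretches, so how their reads were divided is uncertain. The leg muscles differ in their fibre types, and whether the dissections took the same muscle was not tested.

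**Figure D4:**
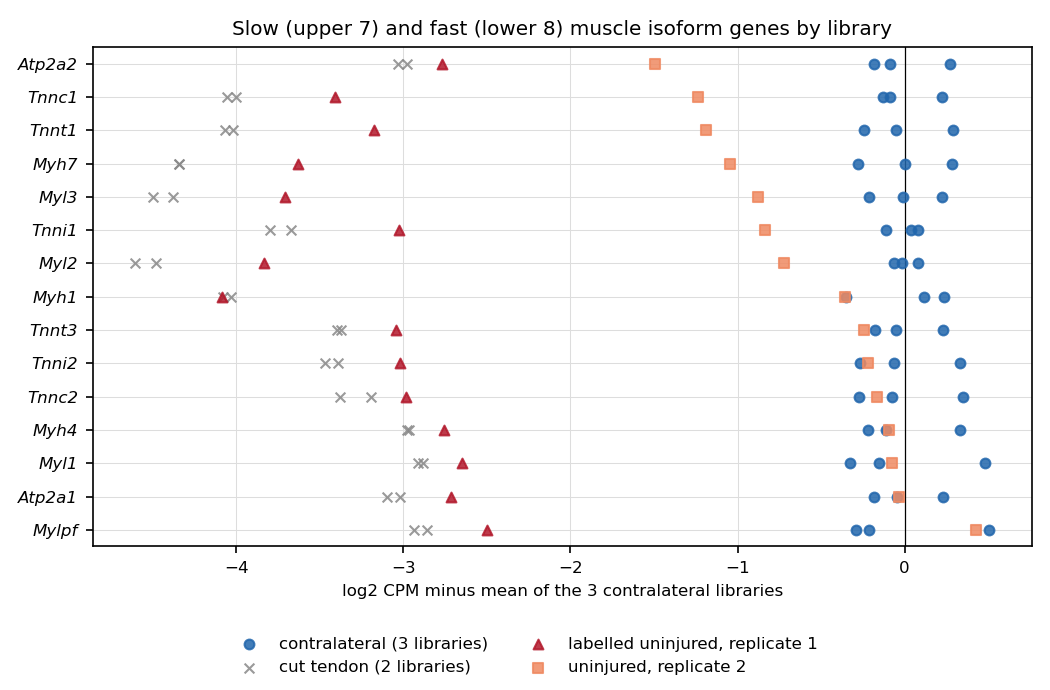
Level of each slow (upper 7) and fast (lower 8) muscle isoform gene in each library as the difference in log2 CPM from the contralateral mean. Uninjured replicate 2 lies below the contralateral libraries for the 7 slow genes and among or next to them for the fast ones, and the library labelled uninjured replicate 1 lies far below for all 15.

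Genes of oxidative metabolism were higher in all contralateral libraries for most members. This held for 15 of 17 genes of fatty acid oxidation, 15 of 20 nuclear genes of oxidative phosphorylation and 13 of 13 mitochondrially encoded mRNAs. It also held for 18.9% of all genes tested. Uninjured replicate 2 lay below the contralateral range for 15, 15 and 13 members of the 3 lists, and for 29.6% of all genes. The median differences from uninjured replicate 2 were 0.49, 0.34 and 0.60 log2, and from the library labelled uninjured replicate 1 they were 2.07, 2.20 and 2.78. Acadm, a dehydrogenase of medium-chain fatty acids, was at 25.3, 31.9 and 29.5 CPM against 4.31 and 19.2. Without the library labelled uninjured replicate 1, Pdk4 was the only member of the 3 lists that rose. Mitochondrial ribosomal RNA, which moves with these genes, took 8.45% to 10.36% of counts in the contralateral libraries, 7.16% in uninjured replicate 2 and 2.75% in the library labelled uninjured replicate 1. Its part in the result was not tested.

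Globin transcripts, carried by red blood cells, were slightly lower in the contralateral libraries than in both uninjured ones. Hba-a2 was at 14.4, 13.9 and 14.8 CPM against 19.98 and 19.03, and Hbb-bs at 14.1, 13.5 and 15.9 against 20.2 and 18.7. The 4 globin genes all lay below both uninjured libraries, where 16.6% of all genes did. Their log2 fold changes were -0.43 to -0.59, and none passed in the fit of all libraries. Paired globin genes are nearly identical and their reads can be split between them, so the 4 are not independent. Alas2, an enzyme of haem synthesis in red cell precursors, overlapped.

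Schwann cell genes gave opposite answers for the 2 uninjured libraries. Of 10 tested, 9 were above the contralateral range in uninjured replicate 2 (26.7% of all genes), with a median difference of -0.59 log2. In the library labelled uninjured replicate 1, 6 were below it (37.9% of all genes). Pmp22, a protein of peripheral myelin, was at 40.7, 42.0 and 38.3 CPM against 67.2 in uninjured replicate 2 and 18.1 in the library labelled uninjured replicate 1. The contralateral libraries thus lay between the uninjured ones. Pmp22 fell by 0.74 log2 (adjusted p = 0.0168) in the fit without the library labelled uninjured replicate 1.

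Among macrophage markers and interferon-stimulated genes, no member was higher in all contralateral libraries than in both uninjured ones. Of 13 macrophage and leukocyte markers, 5 lay below both, where 16.6% of all genes did. The median difference was -1.97 from the library labelled uninjured replicate 1 and -0.21 from uninjured replicate 2. The former had 12 of the 13 above the contralateral range, where 39.0% of all genes were. Of 22 interferon-stimulated genes, 5 also lay below both, near the share over all genes. The median was -0.82 against the library labelled uninjured replicate 1, with 21 of 22 above the contralateral range, and -0.04 against uninjured replicate 2. Of 20 acute-phase and cytokine genes, 11 passed the filter on low counts, with Il6ra above both and Socs3 below both. Socs3, an inhibitor of cytokine signalling, was at 0.5997, 0.655 and 0.804 CPM against 3.23 and 0.826.

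Several acute-phase genes were near the limit of detection. Saa3 had 0, 1 and 0 counts in the contralateral libraries and 0 in uninjured replicate 2, at 0.539 CPM in the library labelled uninjured replicate 1. Il6 had 0 counts in all 5 libraries, and S100a8, a neutrophil protein, had 0 in the contralateral libraries and uninjured replicate 2 and 7 in the library labelled uninjured replicate 1. At this depth a difference in these genes was not detectable against uninjured replicate 2. Lcn2, another acute-phase gene, overlapped at 0.216 to 0.375 CPM against 0.180 and 0.413.

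Of the smaller lists, heat shock genes had 6 of 10 above both uninjured libraries and 1 below (18.9% and 16.6% of all genes), with medians of 0.91 log2 against the library labelled uninjured replicate 1 and 0.25 against uninjured replicate 2. Hspb1, a small heat shock protein abundant in muscle, was at 14.1, 15.9 and 16.4 CPM against 2.73 and 9.53. Circadian clock genes had 8 of 19 above both and 0 below, with medians of 0.54 and 0.15 log2 in the same order. Per2 was at 11.2, 8.96 and 8.97 CPM against 6.65 and 7.78, but Dbp and Arntl, which cycle strongly, overlapped. The hour of harvest is not given in the sources used here. Egr1, an immediate early gene, was at 1.57, 1.62 and 1.76 CPM against 4.02 and 3.30, and 3 of 13 genes of that list lay below both libraries against 1 above.

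Of 11 adipose genes 2 lay above both, where 18.9% of all genes did. Adipoq, the adipocyte hormone adiponectin, was at 14.7 to 21.0 CPM against 6.11 and 18.7. Of 6 thermogenic genes 4 lay above and 1 below, and of 10 proliferation genes 3 lay below, each of these 3 under 1 CPM in all 5 libraries. Of 10 endothelial markers 2 lay below, of 5 neutrophil genes tested 3, of 3 lymphocyte genes 1 and of 10 integrated stress response genes 1, where 16.6% of all genes lay below both. Y-linked genes were present in all 5 libraries, and none of 5 sex-linked genes separated the groups. The skin keratin genes Krt5 and Krt14 had 8 and 12 counts in the library labelled uninjured replicate 1 and at most 1 in each of the other 4.

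Genes of TAK1 and of TGF-β and BMP signalling, the pathway the study was about, had 7 of 30 above both uninjured libraries and 4 below both, close to the shares over all genes. The median difference was 0.18 log2 from the library labelled uninjured replicate 1 and -0.04 from uninjured replicate 2. Map3k7, which encodes TAK1, was at 10.2, 10.05 and 9.22 CPM against 6.504 and 8.09. The log2 fold change was 0.43 (SE 0.16, adjusted p = 0.228), and 0.28 without the library labelled uninjured replicate 1 (adjusted p = 0.497). Tab3, its binding partner, was at 2.19 to 2.36 CPM against 1.72 and 1.86. No member of this list passed in either fit. The log2 fold changes of Map3k7 and Tab3 turned to -0.11 and -0.86 when length-scaled TPM were fitted instead.

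**Figure D5:**
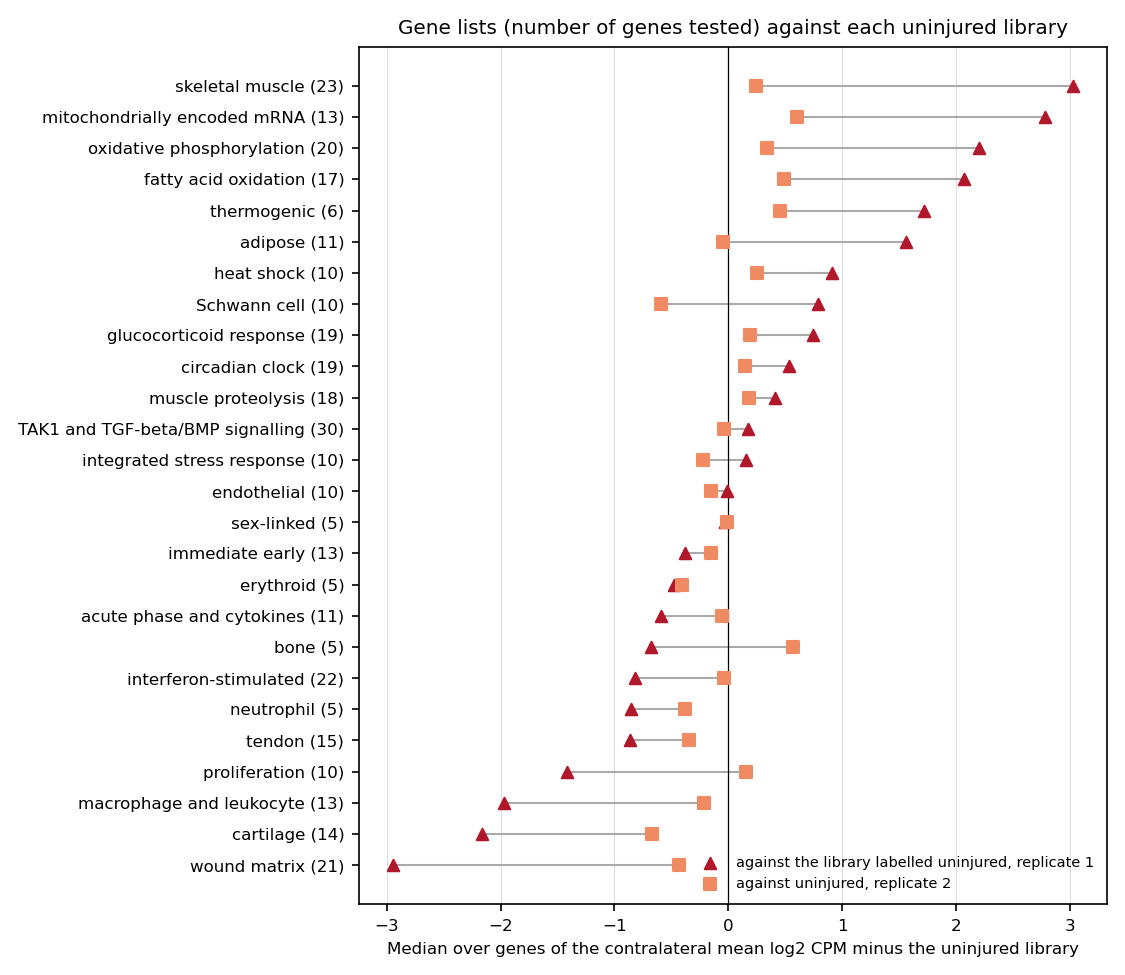
Median over the genes of each list of the contralateral mean log2 CPM minus 1 uninjured library, with the number of genes tested in brackets, for lists with at least 5, leaving out the 4 lists added after values were seen. Triangles, against the library labelled uninjured replicate 1, spread from -2.95 to 3.03, and squares, against uninjured replicate 2, from -0.67 to 0.60.

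Where only 1 uninjured library lay outside the contralateral range, the genes were of different kinds. For the library labelled uninjured replicate 1, Tnni2, Tnnc2, Myh4, Atp2a1 and Ckm, all of skeletal muscle, stood farthest below. Farthest above were Lum, Fn1, Lyz2, Col12a1 and Thbs1. Lum, a matrix proteoglycan, was at 7.91 to 10.1 CPM in the contralateral libraries and 8.60 in uninjured replicate 2 against 99.3. For uninjured replicate 2 the distances were smaller. Csrp1, Nfe2l2, Gpc1, Npc1 and Psg16 were farthest below, and Cilp2, Peg3, Akap12, Ehd2 and Ogt farthest above. Cilp2, a matrix protein of joints, was at 10.2 to 16.6 CPM and 11.7 in the library labelled uninjured replicate 1 against 25.9.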

How the data were processed

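Total RNA of 7 mouse hindlimb tendons was sequenced from TruSeq RNA libraries, per the labels' protocols. The submitters' processing notes name kallisto, with no version, FastQC 0.11.4 and the human build GRCh38, although every transcript identifier is a mouse one. The files give estimated counts deposited by the authors per transcript, not normalized, and TPM deposited by the authors, scaled by effective length; the annotation release is not given in the sources used here. Transcripts were matched without version to GENCODE M21 (GRCm38). Of 103639, 101510 matched (57625 with the same version), and 2129 were kept as single features. Estimated counts were summed per gene and rounded, giving 44818 features. In R 4.3.3, edgeR 4.0.16 filtered low counts (filterByExpr, minimum count 10), which left 16028, scaled them by TMM and fitted all 7 libraries with 3 group means (quasi-likelihood test). Adjustment for multiple tests was that of Benjamini and Hochberg, over all genes tested, with 0.05 as the threshold. CPM are counts per 1000000 of the TMM-scaled library, and log2 CPM used a prior count of 2. CPM of different genes are not comparable, since they are not divided by length. The procedure was also run on simulated counts. There both uninjured libraries had the same mean profile, so that run cannot address the difference between the real ones.

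Libraries were grouped by the condition label, and replicates numbered in accession order. The members, the 28 lists and the tests were chosen with earlier results of these data known. Another 4 lists (imprinted growth genes, slow and fast muscle isoforms, collagen chains) were added after the values were seen. Named were 19 fixed genes, the 12 widest separated in each direction (mean log2 CPM of at least 3, no placeholder symbol, uninjured libraries no farther apart than the gap), up to 4 per list and 5 each way for each uninjured library; further list members were named after their values were seen, and some genes the rule names are not reported here. Alternatives were DESeq2 1.42.0, limma 3.58.1 (voom), other scalings, filters, gaps and covariates, length-scaled TPM, and leaving out each library. The 11 abundant features leave 2527343 to 4225736 counts per library for the other genes, which limits precision for genes under about 1 CPM.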

Additional observations from a re-analysis of the deposited data

How the results depend on the processing

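The absence of calls at an adjusted p of 0.05 was kept by limma-voom, the fit of the 5 libraries compared, relative log expression and upper quartile scaling, removal of abundant and mitochondrial features or of the listed muscle genes, and length-scaled TPM, each with 0 higher and 0 lower. DESeq2 called 81 genes higher and 142 lower, the fit with no filter on low counts 94 and 243, and the series of the title number as a covariate 1344 and 1122, a fit in which the library labelled uninjured replicate 1 alone stands for its group. Leaving out 1 library at a time gave 0 to 2857 genes higher and 0 to 2536 lower, where calls arose only without an uninjured library. The same runs gave 3549 to 6287 genes above the uninjured libraries kept and 3347 to 6570 below them, and 36 to 1510 and 52 to 1218 with a gap of 1 log2. Among genes with a mean log2 CPM of at least 3, 857 lay above and 301 below, with 4 and 4 past the gap. A gap of 0.5 log2 gave 123 and 149, a gap of 2 log2 gave 5 and 4, and length-scaled TPM gave 53 lower. Upper quartile scaling moved the median log2 fold change of all genes from -0.01 to -0.09 and the counts without overlap to 2529 above and 3263 below. The causes were not tested.

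Of 171 named genes tested, DESeq2 brought 50 past the threshold, where it called 0.505% of all genes higher and 0.886% lower. With no filter on low counts 44 passed, where 94 genes were called higher and 243 lower of 29100 tested. Many named genes were chosen by their separation in these libraries or after their values were seen. A high share passing among them was thus built in and is no measure of robustness. The fits without 1 uninjured library, and that with the title number as a covariate, rest on 1 uninjured library. No uninjured library shares a title-number series with a contralateral one. The covariate fit thus links the groups only through the libraries of the cut tendon, and cannot separate series from group within the 5 libraries compared. H19 and Pmp22 were among the genes whose direction changed without uninjured replicate 2 and with the title number as a covariate. H19 went to 1.45 and 1.33 log2 and Pmp22 to 1.16 and 1.13. Leaving out 1 library at a time moved H19 from -1.10 to 1.45 and Pmp22 from -0.74 to 1.16, with both ends set by the uninjured libraries. No paired analysis was possible because replicate numbers came from accession order and the labels tie no contralateral library to an uninjured one.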

Other observations

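Several genes outside the lists were called in the fit without the library labelled uninjured replicate 1, and were picked after their values were seen. Mybph, a myosin-binding protein, was at 1.24, 0.911 and 0.897 CPM in the contralateral libraries against 3.95 in the library labelled uninjured replicate 1 and 5.23 in uninjured replicate 2, and fell by 2.38 log2 (SE 0.20, adjusted p = 0.000585). C1qtnf6, a secreted C1q-like protein, was at 1.31, 1.74 and 1.82 CPM against 10.995 and 5.33. Both lay under the level asked of the well-measured genes and had their contralateral libraries below both uninjured ones.

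On the other side, Ostn, which encodes the secreted peptide osteocrin (musclin), was at 3.67, 3.22 and 3.18 CPM against 0.395 and 1.31, and rose by 1.35 log2 (SE 0.22, adjusted p = 0.0202). Igfn1, a protein of the muscle Z disc region, was at 2.77, 2.02 and 2.13 CPM against 0.826 and 0.482. Mef2c, a transcription factor of muscle, was at 76.4 to 81.2 CPM against 15.95 and 44.3.

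Other calls of that fit set the uninjured libraries on opposite sides of the contralateral ones. Actc1, the cardiac actin, was at 5.36, 5.49 and 4.82 CPM between 0.826 and 11.5 in uninjured replicates 1 and 2. Esr1, the oestrogen receptor, was at 6.78 to 7.21 CPM between 4.24 and 11.1.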
